A study of Mus musculus with 2 samples.

Results

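The array carried 208 probes for the variable segments of immunoglobulin genes, out of 56597 probes for transcripts. The rule that chose them uses the annotation and no measured value: each has a description that names an immunoglobulin heavy, kappa or lambda chain and then the word variable. Of these, 104 were described as heavy chain, 102 as kappa chain and 2 as lambda chain probes. The expression of the segments was compared between EpCAM+ cells, an epithelial fraction collected on magnetic beads from the submandibular salivary glands of female C57BL/6 mice (C57BL/6N in the methods of the study), at an age of 9 weeks (young) and 24 months (aged). Each age was represented by 1 mouse and 1 array, so no difference between the ages has a replicate check, no test was made, and differences between the mice cannot be told apart from those between the ages. The methods of the study give different sources for the young and the aged animals, which cannot be told apart from age either.

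An antibody is built from heavy and light chains, and the light chain is either kappa or lambda. Each B cell joins a single variable segment of its heavy chain locus, and a single one of a light chain locus, to joining segments placed before a constant region, and the variable segment supplies most of the part that binds antigen. The transcripts of a population of B cells or plasma cells therefore spread over many segments, whereas those of a clone and its progeny carry the same few. Plasma cells in salivary glands are known for the IgA that ductal epithelial cells carry into the saliva. In RNA from a mixture of cells, fewer cells of a type and less RNA per cell cannot be told apart.

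Each probe is an oligonucleotide of 60 bases, and 8 are given here because they had, for the heavy or the kappa chain, the largest measured difference past 2-fold or the largest lower limit in either direction, or, for Iglv1, were the only lambda segment probe with a signal above background. The sequences and their positions are those of the array design on the mouse build mm9 (NCBI37). Capitals mark the codons for tyrosine, tyrosine or phenylalanine, and cysteine near the end of a variable segment, searched as TATTACTG, TATTTCTG and TACTACTG.
Ighv1-19, chr12:115946948-115947007, minus strand: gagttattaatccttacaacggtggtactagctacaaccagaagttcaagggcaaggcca
Ighv5-15, chr12:115064989-115065048, minus strand: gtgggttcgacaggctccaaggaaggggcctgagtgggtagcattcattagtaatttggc
Ighv1-85, chr12:117238426-117238485, minus strand: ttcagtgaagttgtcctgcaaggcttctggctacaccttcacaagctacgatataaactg
Ighv1-81, chr12:117158613-117158672, minus strand: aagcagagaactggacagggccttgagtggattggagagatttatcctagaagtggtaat
Igkv4-55, chr6:69557315-69557374, minus strand: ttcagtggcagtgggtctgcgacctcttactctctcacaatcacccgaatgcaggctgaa
Igkv4-90, chr6:68757412-68757471, minus strand: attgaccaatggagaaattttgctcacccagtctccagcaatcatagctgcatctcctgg
Igkv6-15, chr6:70356463-70356522, minus strand: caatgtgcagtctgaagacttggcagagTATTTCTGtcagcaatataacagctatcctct
Iglv1, chr16:19085111-19085170, minus strand: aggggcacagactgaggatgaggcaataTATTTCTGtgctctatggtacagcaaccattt
Any of the 3 motifs was present in 47 of the 208 variable segment probes (22.6%), in 14 of the 102 probes for variable segments of T cell receptors (13.7%) and in 359 of all 56597 probes (0.634%). Read on the opposite strand, the motifs were found in 1 of the 208 probes and in 0.486% of all probes.

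Probes of the same family can be close to identical. Of the 208 probes, 22 formed 12 pairs that matched at 54 or more of 60 bases when shifted by up to 20 bases, and 76 matched another member at 48 or more. RNA of the one segment may then bind the probe of the other, so the values of such probes are not independent. In the following pairs, both probes were above background at one age or both, and capitals mark the bases that differ where the pair overlaps.
Ighv1-23, chr12:116002746-116002805, minus strand: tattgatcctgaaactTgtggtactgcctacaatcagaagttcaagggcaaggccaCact
Ighv1-15, chr12:115895649-115895708, minus strand: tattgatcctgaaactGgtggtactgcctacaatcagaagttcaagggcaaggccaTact
Igkv4-57-1, chr6:69494355-69494414, minus strand: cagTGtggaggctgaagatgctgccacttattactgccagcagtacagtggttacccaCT
Igkv4-62, chr6:69349806-69349865, minus strand: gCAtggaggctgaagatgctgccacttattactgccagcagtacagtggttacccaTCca
Igkv4-60, chr6:69413210-69413269, minus strand: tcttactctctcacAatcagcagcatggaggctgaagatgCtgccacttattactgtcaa
Igkv4-63, chr6:69327964-69328023, minus strand: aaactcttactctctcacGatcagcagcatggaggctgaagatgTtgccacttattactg
Igkv5-43, chr6:69773526-69773585, minus strand: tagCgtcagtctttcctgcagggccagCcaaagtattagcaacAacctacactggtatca
Igkv5-45, chr6:69725919-69725978, minus strand: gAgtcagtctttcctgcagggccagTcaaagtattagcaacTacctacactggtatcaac
Of the 12 pairs, 7 were of this kind, and 4 of them are shown. The Igkv4-57-1 and Igkv4-62 probes were above background in aged cells only, and the Igkv5-43 and Igkv5-45 probes in young cells only. Of the Ighv1-23 and Ighv1-15 probes, which match at 58 bases, the former was above background at both ages and the latter in aged cells only. In addition, 111 of the 208 probes are listed with more than 1 Ensembl transcript, so a symbol here names the segment a probe was designed for, and its signal may include relatives.

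Values are given as levels, namely log2 of the processed signal over the 75th percentile of the array, so that a level of 0 is the 75th percentile, and as differences, the aged level minus the young level. A probe is called detected where the scanner software marked it as well above background, and the lowest level so marked was -4.19 for young and -3.79 for aged cells. Of all probes, 53.4% were detected in young and 48.5% in aged cells. The 8 epithelial markers were detected at both ages except Krt19, a ductal keratin, which was detected in young cells only, and EpCAM itself had a level of 2.79 in young and 2.99 in aged cells. The summed signal of the epithelial markers was 660 times the 75th percentile in young and 782 times in aged cells. Markers of blood cells were detected too: 5 of 6 B cell, 5 of 7 plasma cell, 8 of 10 T cell and all 7 macrophage and dendritic cell markers were detected at one age or both. The plasma cell markers Mzb1 and Tnfrsf17 were detected at neither age, and those detected include Xbp1 and Derl3, which secretory epithelial cells express as well.

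Probes of both directions were found in the heavy and in the kappa chain. At each age, 77 of the 208 probes were detected, 49 of them at both ages, so that 28 were detected in aged cells only and 28 in young cells only. The remaining 103 probes were not well above background at either age. Single-sided detection concerned 13.5% of the probes in each direction, against 1.24% of all probes in aged cells only and 6.11% in young cells only. Of the 49 probes detected at both ages, 15 were at least 2-fold higher in aged cells, a call made for 1.41% of all probes detected at both ages. Another 6 were at least 2-fold lower, against 2.8% of all such probes. With the arrays centred on the median, the split was 17 higher and 3 lower, and with another background correction (normexp) it was 9 higher and 0 lower.

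For a probe detected at one age only, the fold has a lower limit, taken against the lowest detected level of the other array or, if higher, the probe's own level there. By this limit, 22 of the 28 probes detected in aged cells only were at least 2-fold higher, against 48.6% of all probes detected in aged cells only. In the other direction, 15 of the 28 probes detected in young cells only passed 2-fold, against 21.1% of all such probes. Altogether 37 variable segment probes passed 2-fold upward and 21 downward, as measured or by the limit, and are called higher or lower in what follows. With normexp, these counts were 16 and 4. Over the 49 probes detected at both ages, the median difference was 0.21, and over all such probes of the array 0.09. Variable segments of T cell receptors, the other receptor family assembled from such segments, gave values of a smaller size: of 102 probes 14 were detected at both ages, with differences from -0.32 to 0.92, none passed 2-fold (1 did with the arrays centred on the median or after quantile normalization), and no limit reached 2-fold for the 5 detected at one age.

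The kappa chain held the larger groups of higher probes. Of its 102 probes, 23 were detected at both ages, with a median difference of 0.99. Among these, 11 passed 2-fold upward and none downward (the lowest, Igkv8-34, differed by -0.87). By the limit, 13 more passed 2-fold upward and 9 downward, so the kappa probes called lower were all detected in young cells only. In aged cells the brightest kappa probes were those of Igkv10-96, Igkv4-71 and Igkv8-30. Igkv10-96 had a level of -0.75 in young and 1.20 in aged cells, and the difference was 1.95 (3.87-fold). Igkv4-71 went from -0.99 to 1.04 (4.09-fold) and Igkv8-30 from -2.01 to 0.59 (6.05-fold). The 3 brightest kappa probes of young cells were others, namely Igkv8-19, Igkv6-17 and Igkv6-15.

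Segments of the Igkv4 family, the largest kappa family on the array, were higher in aged cells in each probe detected at both ages. Of its 25 probes, 20 were detected in aged cells and 10 of these also in young cells, and none was detected in young cells only. The 10 detected at both ages all had a higher level in aged cells, and 8 of them passed 2-fold. The 10 detected in aged cells only could be called in this direction alone, and 8 of them passed 2-fold by the limit. The probe of Igkv4-55, whose sequence is given above, had a level of -3.19 in young and 0.04 in aged cells, and differed by 3.23 (9.38-fold) with an error of 0.27 from the error model of the scanner software. Igkv4-80 had levels of -3.95 and -0.77 and differed by 3.18 (9.07-fold). Igkv4-70 went from -3.05 to -0.63, Igkv4-63 from -3.52 to -1.18 and Igkv4-57 from -3.53 to -1.36. Aged cells had the higher level for each of them, by 5.38-fold, 5.07-fold and 4.48-fold.

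Smaller measured differences in this family were 1.99 for Igkv4-58, 1.72 for Igkv4-51, 0.99 for Igkv4-50 and 0.79 for Igkv4-72. Of the Igkv4 probes not well above background in young cells, Igkv4-90 had an aged level of -0.55 and was at least 12.5-fold higher. Igkv4-57-1 was at least 10.4-fold, Igkv4-62 at least 10.1-fold, Igkv4-60 at least 9.38-fold and Igkv4-68 at least 8.48-fold higher. The members that missed 2-fold by the limit were Igkv4-79 (at least 1.96-fold) and Igkv4-92 (at least 1.98-fold). Since several of these probes are near-identical, as the pairs above show, the 16 calls are not 16 separate measurements. The median difference over the 10 Igkv4 probes detected at both ages was 2.10, and with these 10 probes it lay between 1.11 and 2.27 under the other scalings and background corrections tried, each of which left all 10 differences above 0.

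Among the other kappa families, Igkv3 showed the same direction, with 4 of its 9 probes called higher. Igkv3-7 went from -4.00 to -1.41, a difference of 2.58 (5.99-fold), and Igkv3-4, Igkv3-2 and Igkv3-1 were detected in aged cells only. For Igkv3-4, 2 probes at different places of the segment gave lower limits of 7.61-fold and 2.28-fold. Of the 11 Igkv1 probes, 5 were detected in young cells and none in aged cells. Detection in young cells only concerned 6.11% of all probes. The 5 could be called in the downward direction alone, and 2 of them passed 2-fold by the limit. Igkv1-131 had a young level of -0.82, was not well above background in aged cells and was thus at least 7.85-fold lower. Igkv6-15 had a young level of -0.41 and was at least 10.5-fold lower. Igkv16-104 was at least 6.27-fold, Igkv5-43 at least 5.60-fold, Igkv6-13 at least 4.77-fold (by its brightest probe) and Igkv5-45 at least 4.18-fold lower.

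Members of the Igkv6 and Igkv8 families lay in different directions. Igkv6-32 was at least 4.79-fold higher in aged cells, while the 3 probes of Igkv6-13 and that of Igkv6-15 were detected in young cells only. Igkv6-17, printed on the array in 10 spots, had a level of -0.36 ± 0.06 in young and -0.15 ± 0.07 in aged cells (SD over 10 spots of the same RNA), and the difference of 0.21 ± 0.07 was far below 2-fold. Igkv8-30 was higher in aged cells, whereas Igkv8-24 was at least 3.80-fold lower. Igkv8-19, the brightest kappa probe of young cells, stayed under 2-fold, with levels of -0.22 and -0.47.

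For the heavy chain, the probes detected at both ages were split more evenly. Of 25 such probes, 11 had a difference above and 14 below 0. Of these, 4 passed 2-fold upward and 5 downward. The median difference was -0.07, a sign that turned with the arrays centred on the median (0.10), after quantile normalization (0.02) and with normexp (0.05). By the limit, 9 more heavy chain probes passed 2-fold upward and 6 downward. The largest measured difference upward was that of Ighv1-19, with levels of -3.93 and -1.81 and a difference of 2.12 (4.33-fold). Ighv1-37 (1.60), Ighv5-17 (1.49) and Ighv1-5 (1.15) were the others past 2-fold. Downward, Ighv1-85 had levels of -1.53 and -3.27 and a difference of -1.74 (3.34-fold lower).

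Ighv1-64 differed by -1.52, Ighv1-83 by -1.25, Ighv1-7 by -1.15 and Ighv1-67 by -1.01, the last of these lying just past the 2-fold line. Ighv1-7 was the brightest heavy chain probe in young cells, with a level of -0.19 against -1.34 in aged cells. The Ighv5 probes called higher were Ighv5-17 and, by the limit, Ighv5-15, Ighv5-9-1 and Ighv5-12-4. Ighv5-15 had an aged level of -0.61, was not well above background in young cells and was thus at least 11.9-fold higher. Ighv5-9-1 was at least 5.34-fold, Ighv14-1 at least 3.89-fold, Ighv1-31 at least 3.36-fold, Ighv1-36 at least 3.13-fold and Ighv5-12-4 at least 3.08-fold higher.

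Detected in young cells only, Ighv1-81 had a young level of -0.98 and was at least 7.02-fold lower in aged cells. Ighv1-80 was at least 6.79-fold, Ighv1-73 at least 4.21-fold, Ighv1-47 at least 3.73-fold, Ighv1-66 at least 3.08-fold and Ighv1-9 at least 2.69-fold lower. All of these belong to Ighv1, the largest heavy chain family on the array with 48 probes. This family had members in both directions, with 8 probes called higher and 11 called lower. None of the 56 other heavy chain probes was at least 2-fold lower. Only 7 of the 56 were detected in young cells, so few of them could have been called lower. By the same rule, 718 of all 56597 probes were called higher and 1480 lower. Of the 56, 44 were not well above background at either age. These include all 7 of Ighv2, 7 of Ighv3, 5 of Ighv6 and 6 of Ighv8.

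The lambda chain was represented by 2 probes, of which only that of Iglv1 could be measured. It had a level of -1.53 in young and -2.63 in aged cells and differed by -1.10 (2.15-fold lower) with an error of 0.27 from the scanner software. This was under 2-fold with the arrays centred on the median (-0.93), after quantile normalization (-0.98) and with normexp (-0.29). A second probe for Iglv1, whose description lacks the words of the rule, had levels of -1.57 and -2.44 and was also lower in aged cells, by 1.84-fold. The probe of lambda constant region 1 differed by -0.64 and the 2 probes of lambda constant region 3 by -0.13 and 0.06.

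The calls were also counted by the position of the segments in their locus, a division chosen after the values had been seen. The span of the probes along the heavy chain and the kappa chain locus was divided into 3 parts of equal length. By the same rule, 718 of all 56597 probes of the array were called higher and 1480 lower. Calls by the limit are included, and each of these could go in 1 direction only. On chromosome 12, the part farthest from the mu constant region (1774 to 2580 kb away) held 25 heavy chain probes, 11 of them not detected. Of the 25, 8 were called lower, 4 as measured and 4 by the limit, and none higher. The 8 probes of this part detected at both ages had a median difference of -0.78 (-0.33 with normexp). The middle part (972 to 1738 kb) held 37 probes, with 8 higher and 3 lower, and the part nearest to the constant region (158 to 946 kb) held 40 probes, with 5 higher and none lower. Of these, 14 probes of the middle part and 31 of the near part were not detected. Within the Ighv1 family alone, the 27 probes of the middle part had 8 higher and 3 lower, and the 21 of the far part had none higher and 8 lower.

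On chromosome 6, the middle part of the kappa locus (1078 to 2095 kb from the kappa constant region), where most of the Igkv4 family lies, held 31 probes, of which 16 were called higher and none lower. The far part (2135 to 3171 kb) held 28 probes, with none higher and 4 lower, and the near part (23 to 1045 kb) held 43 probes, with 8 higher and 5 lower. Of the 16 calls in the middle part, 8 were measured and 8 by the limit, and the 4 in the far part were all by the limit. In the middle, far and near parts, 12, 17 and 16 probes were not detected. Neighbours in a locus are often of the same family and share sequence, so position, family and cross-binding of probes cannot be told apart by these counts.

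Several segments had more than 1 probe, which gives a check of how far a segment can be read from a single oligonucleotide. Of the 11 such segments, the probes of Igkv3-4, Igkv4-58 and Igkv6-13 did not disagree in direction. Those of Igkv3-4 were detected in aged cells only and those of Igkv6-13 in young cells only. Of those of Igkv4-58, the first was measured as higher and the second was detected in aged cells only. The Igkv6-13 probes differed in size, with lower limits of 4.77-fold and 1.61-fold, and the last allowed no fold. The probes of Ighv1-37, which lie side by side, had nearly equal aged levels (-1.63 each) but young levels of -1.89 and -3.23, so that they differed by 0.26 and 1.60. For Igkv6-25, one probe differed by 0.68, while the other was detected in young cells only. For Ighv1-5, Ighv1-7 and Ighv1-55, only 1 of the probes was detected at all. Of the Igkv2-109 probes, one differed by -0.12 and the other, detected in young cells only, allowed no fold, and those of Igkv3-10 and Ighv8-8 were not detected.

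By symbol, 206 of the 208 probes matched a segment in the RefSeq annotation of GRCm38.p6, 196 a segment and 10 a pseudogene segment. Of the 10 pseudogene probes, Ighv1-2 was detected at both ages, with levels of -1.86 each, and Ighv4-2 in aged cells only. None of the 10 passed 2-fold. The 2 unmatched probes are placed outside the immunoglobulin loci: that of 1700018A04Rik, on chromosome 13, differed by 0.04, and a heavy chain probe placed on chromosome 19 was not detected.

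The constant regions, which are shared by the transcripts of many variable segments, differed by class. Both kappa constant probes stayed under 2-fold, with differences of 0.44 and 0.54 from young levels of 4.57 and 3.76, whereas the kappa variable segments lay in both directions. The alpha constant region, that of IgA, had levels of 6.18 and 3.81 and was 5.17-fold lower in aged cells by the only alpha probe detected. The other alpha probe was detected at neither age. The gamma regions, those of IgG, were higher: of the gamma 2C probes, the one detected at both ages had levels of -4.08 and 4.45, and the others had lower limits of 125-fold and 499-fold. The limit was 130-fold for gamma 2B and 14.8-fold for gamma 1. Gamma 3 was 2.28-fold higher by one probe and at least 2.58-fold by the other. The 3 mu probes were not of one direction, with differences of 3.87, 2.83 and -1.24, and the delta probe that could be measured differed by 0.52. In all, 9 of the 20 constant region probes were called higher and 2 lower, and 3 were not detected. Of all 56597 probes, 718 were called higher and 1480 lower.

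Genes of B cells and plasma cells gave a mixed picture beside these values. Of 16 B cell genes, 8 were detected at both ages, with a median difference of -0.21, and Cd79b, a signalling chain of the B cell receptor, was 4.42-fold lower. Ms4a1, which encodes CD20, was detected in young cells only, and Cd79a, the partner chain of Cd79b, at neither age. The summed signal of those of the 16 genes detected at one age or both was 11.5 times the 75th percentile in young and 13.7 times in aged cells. Most of this sum came from Pou2af1 alone, with levels of 2.73 and 3.29. The summed signal of the 6 B cell markers, which do not include Pou2af1, was 2.53 and 1.97 times the percentile. Of 10 plasma cell and secretion genes, Jchain, which joins the units of IgA and IgM, was 3.44-fold lower in aged cells. Irf4 and Slamf7 were lower by the limit, and none was at least 2-fold higher. The summed signal of the 7 plasma cell markers was 199.5 times the 75th percentile in young and 274 times in aged cells, most of it from Xbp1 and Derl3, which secretory epithelial cells express as well. The part of B cell or plasma cell numbers in the segment values was not tested.

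Genes for the assembly and diversification of variable segments gave no difference of 2-fold. Rag1 and Rag2, the recombinase that joins segments, were not well above background at either age, and none of the 4 genes of that list of 9 that could be measured passed 2-fold. Among 8 Fc receptor genes, 7 were detected at both ages. Of these, 5 were at least 2-fold lower in aged cells, namely Fcgr1, Fcgr2b, Fcgr3, Fcer1g and Fcgrt, and none was higher. Of all probes detected at both ages, 2.8% were at least 2-fold lower. Of the 7 markers of macrophages and dendritic cells, cells that carry such receptors, 4 were at least 2-fold lower as well, and their summed signal was 189 times the 75th percentile in young and 101 times in aged cells. Of the 8 genes that attract B cells or keep them alive, all but Tnfsf13 were on the array under their name. Cxcl13, a B cell chemoattractant, was detected in aged cells only, with a lower limit of 10.6-fold, and Ccl28, which attracts cells that secrete IgA, was 2.02-fold higher. Cxcr5, the receptor for Cxcl13, was not detected.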

How the data were processed

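Epithelial cells were profiled on 1 array per age, both on the same slide. Per the file headers and labels, the deposited processed intensity was made by the authors with Agilent Feature Extraction 12.0.3.1, which subtracts background and corrects trends within the array and writes a small substitute where no signal can be measured. The authors' table equals these intensities over 1 constant, 229 (young) or 176 (aged), within 0.1% for all 62976 spots. Here log2 of the processed intensity was taken and log2 of the 75th percentile over 59305 non-control spots (256 young, 198 aged) subtracted. Outlier spots were left out, none of them on a member. The spots of a probe were averaged, and a probe counted as well above background where more than 50% of its spots did. Probes not well above background on either array were not read. Their median difference was 0.38 for heavy chain members, near 0.37, the log2 ratio of the percentiles. A less strict background mark let more members be measured on both arrays, 106 instead of 49. No spot was saturated. The number of arrays limits the precision. Over 293 probes with more than 2 spots, the median SD of the difference between spots was 0.03, a technical error only, and the software's error of a difference was 0.21 to 0.43 for members measured on both arrays.

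The segments named were those with the largest measured differences of at least 2-fold (up to 8 per chain and direction), the largest limits (up to 6), the 3 brightest per array and chain, and, chosen after their values were seen, those that show a family, a pair or a disagreement. Genes of lists were read by their brightest probe. Some genes of the lists are counted but not reported here by name. The members and lists were chosen with earlier results of these data known. The alternatives were 5 other scalings, normexp (offset 50), another background mark, outlier spots kept and the authors' table. Steps were tested on simulated data. Python 3.11.15, numpy 2.4.6, pandas 2.3.3 and R 4.3.3 with limma 3.58.1 were used.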

Additional observations from a re-analysis of the deposited data

How the results depend on the processing

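No paired analysis was possible because each age has 1 array. Of the 58 probes past 2-fold, none changed direction under any of the 9 alternatives. The 22 called higher and the 15 called lower by the limit could hardly do so, since detection on 1 array sets their direction. The check of direction thus rests on the 15 higher and 6 lower as measured on both arrays. All 58 stayed past 2-fold with loess, with the 75th percentile taken over probes detected at both ages, with outlier spots kept and with the less strict background mark. That number was 57 with the authors' table, 55 on the spike-in controls, 54 after quantile normalization, 53 centred on the median and 20 with normexp, whose offset compresses the differences of dim probes.

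With normexp, 9 probes measured on both arrays were at least 2-fold higher and 0 lower, 7 were higher by the limit and 4 lower, and the median differences were 0.0502 (heavy), 0.57 (kappa) and -0.29 (lambda). With the less strict background mark, 106 members were measured on both arrays, 39 at least 2-fold higher and 22 lower. Centred on the median, 3 were lower, and the medians were 0.10, 1.16 and -0.93. After quantile normalization they were 0.0176, 1.08 and -0.98, with the percentile over probes detected at both ages -0.19, 0.87 and -1.21, and on the spike-in controls -0.33, 0.73 and -1.36. The median of all probes moved by 0.17, -0.03, -0.11 and -0.26 in these 4 settings and by -0.12 with loess. Relative to it, the kappa median differed by 0.90 and the heavy chain median by -0.16 in the main setting.

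With 1 probe per segment, and without the 2 members outside the loci, both chosen after seeing the data, the counts moved by no more than 2. Signal over background limits these results: 103 of the 208 probes could not be read.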

Other observations

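A probe named for the older heavy chain family name Igh-VJ558, outside the rule by its description, had a level of 1.15 in young and -1.10 in aged cells (4.78-fold lower). It is placed at chr12:114498348-114498407, next to the bright alpha constant region probe at chr12:114496985-114497044, which was 5.17-fold lower, and not among the variable segments. The other probes named for Igh-VJ558 were detected at neither age.

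A second probe named for Igkv4-72 had levels of -1.41 and -0.89 and differed by 0.52, against 0.79 for the member of that name. A second probe named for Igkv4-55 was not well above background at either age, although the member of that name was 9.38-fold higher in aged cells. The same held for a second probe named for Igkv6-15, whose member was at least 10.5-fold lower in aged cells.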
